A study of Mus musculus with 12 samples.

Results

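The 8 genes described here are the major histocompatibility complex (MHC) class II genes Ciita, H2-Aa, H2-Ab1, H2-Eb1, Cd74, H2-DMa and H2-DMb1, together with the cathepsin S gene Ctss. They were picked by name from the 33696 genes in the files, not by a measured value, and all 8 passed the filter on low counts in every comparison. The files list them as ENSMUSG00000022504 (Ciita), ENSMUSG00000036594 (H2-Aa), ENSMUSG00000073421 (H2-Ab1), ENSMUSG00000060586 (H2-Eb1), ENSMUSG00000024610 (Cd74), ENSMUSG00000037649 (H2-DMa), ENSMUSG00000079547 (H2-DMb1) and ENSMUSG00000038642 (Ctss). Single-cell RNA sequencing with 3′ chemistry had been run on γδ T cells sorted from the spleen, γδ T cells sorted from the thymus, and a joint sort of DN1, DN2 and DN3 thymocytes, the CD4- CD8- precursors of T cells. The study asked how loss of GFI1, a transcriptional repressor of blood cells, changes γδ T cells and their thymic precursors. Each of 6 pools held hashtagged WT and GFI1 KO cells and was split by hashtag, which gave 12 libraries, 2 per genotype in each of 3 compartments.

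All mice were adult and on the C57BL6/J background, and the KO is a germline deletion, so that every cell of a KO animal carries it. Before the sort, magnetic depletion had been used against B cells, against cells positive for Gr1, CD11b or CD11c (myeloid and dendritic cells) and against those positive for CD49b or NK1.1 (NK cells), and thymic cells were in part depleted of CD8+ cells as well. The thymic γδ T cells and the DN1–DN3 cells came from the same mice. The number of mice behind a library is not given in the sources used here, so that the p values measure the spread between libraries, which may be partly technical. Spleen and thymus were not matched for sex, with Xist at most 0.374 CPM (counts scaled to 1e6 per library) in the splenic libraries and at least 739 CPM in the thymic ones, so that tissue and sex cannot be told apart in any comparison of spleen with thymus.

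MHC class II molecules are pairs of an α and a β chain that display peptides from the endosome to CD4+ T cells, and they are best known from B cells, dendritic cells, macrophages and thymic epithelium. The chains H2-Aa and H2-Ab1 form I-A, and H2-Eb1 is the β chain of I-E, whose α chain gene is defective in the C57BL/6 strain. CIITA is the transactivator without which these genes are not induced, CD74 is the invariant chain that blocks the peptide groove during transport, cathepsin S cuts CD74 down to the last fragment in the groove, and the heterodimer of H2-DMa and H2-DMb1 exchanges that fragment for a peptide. Mouse T cells are known to make little or no class II.

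The files held 97404 cell barcodes, of which 96911 passed the limits of the study, and the libraries held 42091895 to 71663962 unique molecular identifiers (UMIs, each a counted transcript) at a median of 4947 to 6853 per cell. Depth went with the label in all 3 compartments. In thymic γδ T cells the medians were 6853 and 6850 UMIs per cell in the WT-labelled and 5742 and 5665 in the KO-labelled libraries. In spleen they were 4947 and 5025.5 against 5458 and 5402, and in DN1–DN3 cells 6231 and 5975 against 5590.5 and 5792. Libraries of a pool shared 0 barcodes and libraries of different pools 5 to 34. Gfi1 itself was not lower in the KO-labelled libraries. It measured 11.8 and 18.0 CPM in the WT-labelled against 18.1 and 18.1 CPM in the KO-labelled splenic libraries, 16.5 and 17.6 against 28.9 and 19.2 CPM in thymic γδ T cells, and 44.7 and 40.6 against 70.6 and 56.6 CPM in DN1–DN3 cells. A 3′ count outside a deleted part of a gene does not check a genotype, so the libraries are called WT-labelled and KO-labelled throughout. Cells led by the γ variable gene Trgv6, whose numbers are given with the subsets, were more numerous in each KO-labelled γδ T library than in either WT-labelled library of its compartment.

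Levels were taken over 2 sets of cells, all cells and the cells without a UMI of Cd79a, which encodes a chain of the B cell receptor complex. Few cells carried Cd79a. In spleen they numbered 33 and 24 in the WT-labelled and 16 and 27 in the KO-labelled libraries, and in thymic γδ T cells 26 and 31 against 9 and 5. Among DN1–DN3 cells they numbered 18 and 17 against 38 and 68, which is 0.250% and 0.227% against 0.544% and 0.900% of the cells. The KO-labelled libraries were the higher ones in DN1–DN3 cells and the lower ones in thymic γδ T cells, and the genotypes overlapped in spleen. With at least 2 Cd79a UMIs the cells of thymic γδ libraries numbered 0 and 1 against 1 and 2, so that the lower count did not hold there. In the WT-labelled thymic γδ libraries cells with Cd79a had the immunoglobulin gene Igkc at 0 CPM. They had Trdc, the δ chain constant gene, at 909 and 1124 CPM. An exact permutation test of 2 libraries against 2 cannot give a two-sided p below 0.33, which is what both compartments without overlap gave.

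These few cells held a large part of the Cd74 UMIs of some libraries. They held 70.5% and 30.4% of the Cd74 UMIs of DN1–DN3 cells in the WT-labelled and 65.0% and 76.0% in the KO-labelled libraries. In spleen the shares were 54.6% and 7.89% against 5.90% and 1.11%, and in thymic γδ T cells 0 of 144 UMIs (which allows up to 2.08%) and 3.55% against 0.549% and 32.2%. Such a limit covers counting error only. The share of H2-DMa in these cells stayed at or under 4.81% and that of Ctss at or under 6.89% in all 12 libraries. The levels below are therefore from cells without Cd79a unless all cells are named, and the plot of members by library shows both. The cut takes out cells by a single gene. After it the 12 B cell markers still summed to 126 and 192 CPM in the WT-labelled and 144 and 622 CPM in the KO-labelled DN1–DN3 libraries, led by Igkc and Ighm.

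**Figure D1:**
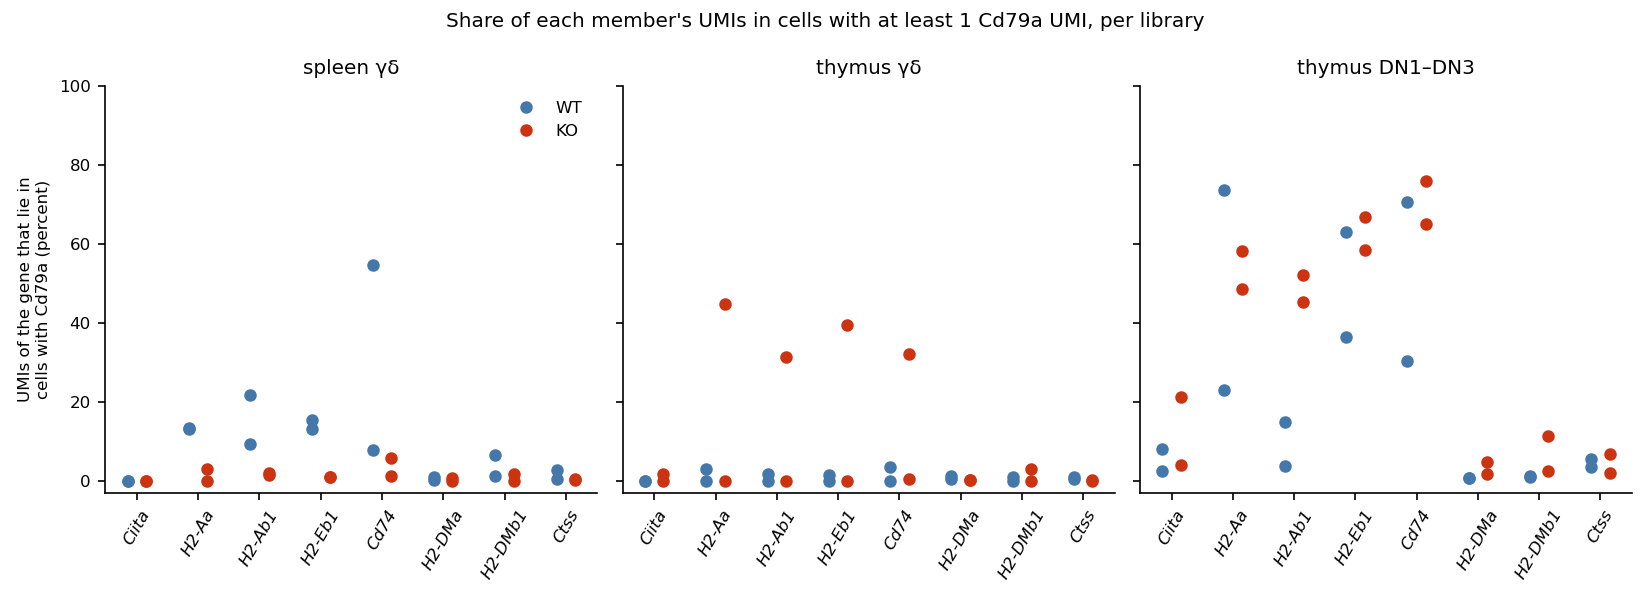
Percent of each member's UMIs that lay in cells with at least 1 Cd79a UMI, with a point per library (blue WT-labelled, red KO-labelled) in each of the 3 compartments. In DN1–DN3 cells these cells held 30.4% to 76.0% of the Cd74 UMIs, while Ctss stayed at or under 6.89% in every library.

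**Figure D2:**
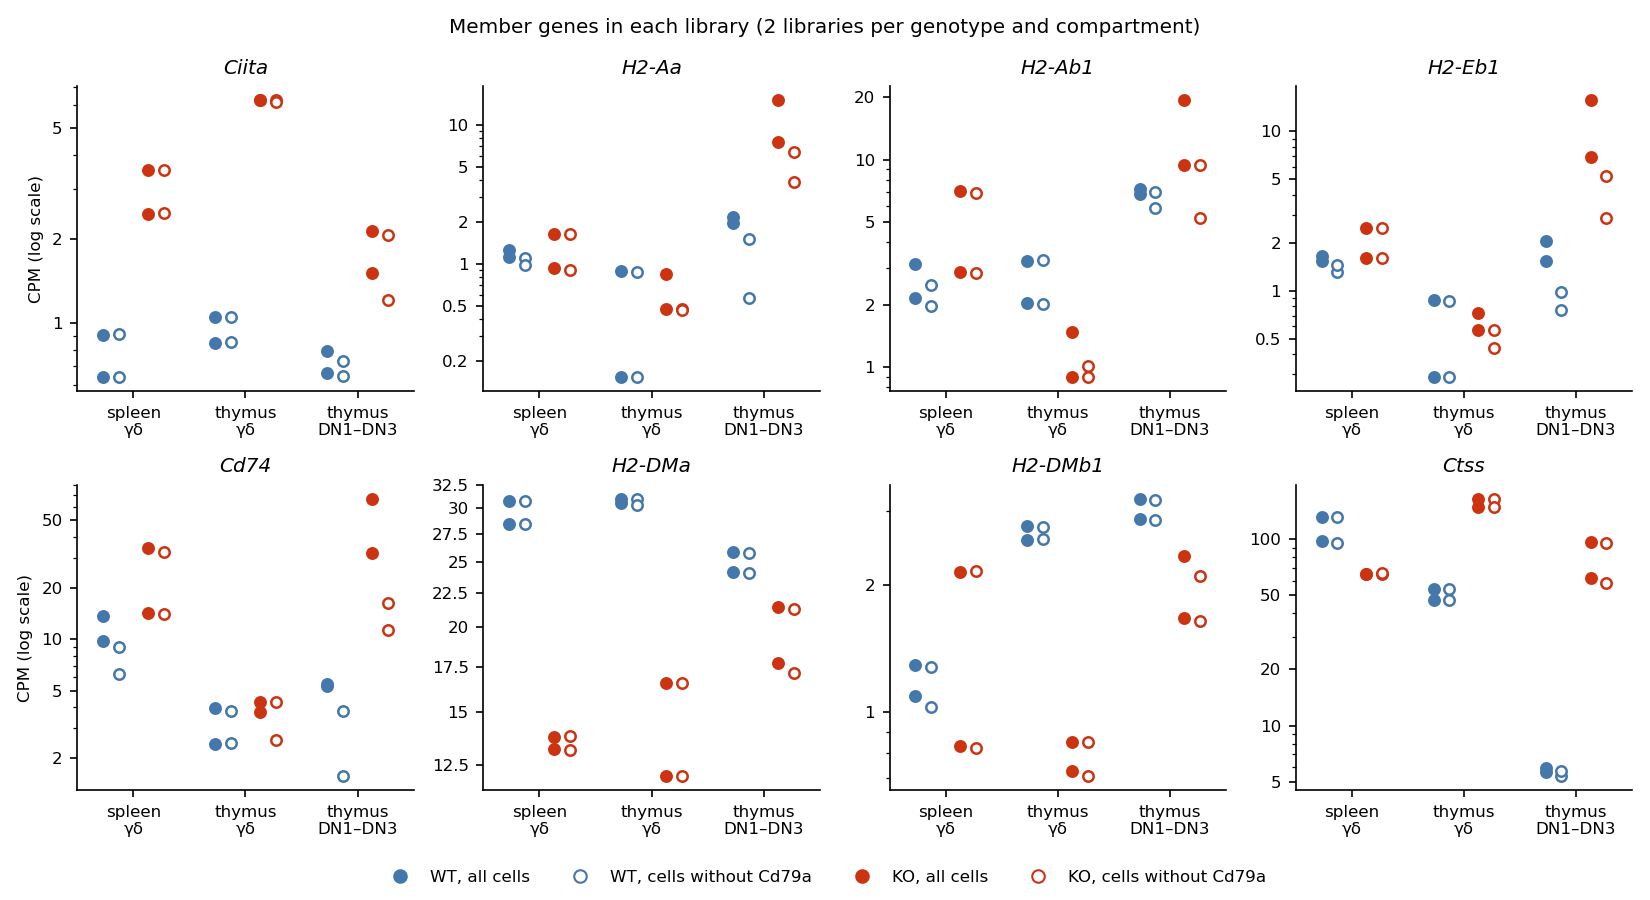
Level of each of the 8 members in CPM (log axes) for every library of the 3 compartments, with filled points for all cells and open points for cells without Cd79a. Ctss was lower in the KO-labelled libraries of spleen and higher in those of both thymic compartments, and filled and open points part mainly for H2-Aa, H2-Ab1, H2-Eb1 and Cd74 in DN1–DN3 cells.

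Ciita was higher in the KO-labelled libraries of all 3 compartments. In spleen it measured 0.911 and 0.640 CPM in the WT-labelled and 3.53 and 2.47 CPM in the KO-labelled libraries. In thymic γδ T cells it measured 0.852 and 1.05 CPM against 6.27 and 6.18 CPM, and in DN1–DN3 cells 0.730 and 0.644 CPM against 2.05 and 1.21 CPM. The genotypes did not overlap in any compartment. The log2 difference between KO-labelled and WT-labelled libraries, tested with edgeR's quasi-likelihood test on UMI sums and adjusted by Benjamini-Hochberg over all genes, was 2.06 ± 0.30 (SE, adjusted p = 0.000207) in spleen, 2.82 ± 0.29 (adjusted p = 3.36e-05) in thymic γδ T cells and 1.23 ± 0.30 (adjusted p = 0.0154) in DN1–DN3 cells. The first 2 calls held in all 15 alternatives. Levels within splenic Trgv6 cells, where Ciita was not called, are given with the subsets. The alternative without cells with myeloid or dendritic markers left out cells with at least 2 markers of a separate list. The call in DN1–DN3 cells was lost in 5, among them without cells with myeloid or dendritic markers (0.88, adjusted p = 0.0892), without the first WT-labelled library (adjusted p = 0.0838), without the second (adjusted p = 0.0893) and without the first KO-labelled library (adjusted p = 0.125).

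Ciita stayed a rare transcript. It was seen in 0.692% and 0.769% of WT-labelled and 3.60% and 3.40% of KO-labelled thymic γδ T cells. After thinning to 2000 UMIs per cell, with cells under 2000 UMIs left out, the expected shares were 0.218% and 0.219% against 1.37% and 1.31%. The order of its 6 group levels ran from KO-labelled thymic γδ T cells over KO-labelled spleen and KO-labelled DN1–DN3 cells to the 3 WT-labelled groups, of which spleen overlapped with each of the others. Cells with Cd79a held 0 of the Ciita UMIs of each splenic library (38 and 38 against 165 and 171 UMIs, which allows up to 7.89% in the shallowest), and its largest share in such cells was 21.2% of the UMIs, in the second KO-labelled DN1–DN3 library.

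The I-A and I-E chains behaved differently from their transactivator. In spleen H2-Ab1 measured 2.49 and 1.97 CPM in the WT-labelled and 6.96 and 2.84 CPM in the KO-labelled libraries. The KO-labelled libraries were the higher ones but lay far apart, and the log2 difference of 1.23 ± 0.47 (adjusted p = 0.0495) stood just past the threshold. It rested on the first KO-labelled library, since without it the difference was 0.44 (adjusted p = 0.423), and the call was also lost without the first (1.34, adjusted p = 0.117) or the second WT-labelled library (1.01, adjusted p = 0.224). H2-Aa, at 1.10 and 0.977 CPM against 1.65 and 0.909 CPM, and H2-Eb1, at 1.32 and 1.45 CPM against 2.46 and 1.60 CPM, were not called in spleen (adjusted p = 0.665 and 0.265).

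In thymic γδ T cells the 3 chains measured at most 3.28 CPM in any library. H2-Ab1 measured 2.03 and 3.28 CPM in the WT-labelled and 0.898 and 1.01 CPM in the KO-labelled libraries, so here the KO-labelled libraries were the lower ones. Its log2 difference of -1.35 ± 0.51 missed the threshold (adjusted p = 0.0533), and with the pool as a block it was -1.32 (adjusted p = 0.0118). The B cell markers, summed over the 12 genes, were also lower there in the KO-labelled libraries, at 158 and 157 CPM against 83.8 and 64.9 CPM. Igkc, 1 of these genes, went the other way, at 0 and 0.589 CPM against 1.61 and 1.68 CPM. Over the 15 alternatives, among them the fit without cells holding any of 6 B cell genes, the H2-Ab1 difference lay between -1.66 and -0.97. What RNA of B cells adds beyond such cuts was not tested. H2-Aa measured 0.153 and 0.870 CPM against 0.473 and 0.463 CPM, and H2-Eb1 0.290 and 0.870 CPM against 0.567 and 0.441 CPM. For both of these the KO-labelled libraries lay between the WT-labelled ones, and the log2 differences were -0.04 ± 0.79 (adjusted p = 0.971) and -0.11 ± 0.55 (adjusted p = 0.887).

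H2-Aa and H2-Eb1 rose together in DN1–DN3 cells. H2-Aa measured 0.568 and 1.51 CPM in the WT-labelled and 3.87 and 6.42 CPM in the KO-labelled libraries, and H2-Eb1 measured 0.763 and 0.982 CPM against 2.88 and 5.28 CPM. Neither gene overlapped between the labels, with log2 differences of 2.30 ± 0.65 (adjusted p = 0.0344) and 2.24 ± 0.47 (adjusted p = 0.00769). Both calls were lost when cells with myeloid or dendritic markers were also left out, at 0.76 (adjusted p = 0.381) for H2-Aa and 0.51 (adjusted p = 0.442) for H2-Eb1, and both were lost without the first WT-labelled library, at an adjusted p of 0.192 and 0.0836. The call of H2-Aa was also lost without the first (adjusted p = 0.0551) and without the second KO-labelled library (adjusted p = 0.11). H2-Ab1 measured 5.84 and 6.97 CPM against 5.23 and 9.43 CPM, with WT-labelled libraries between the KO-labelled ones, and its difference was 0.21 ± 0.44 (adjusted p = 0.771).

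Dendritic and macrophage markers moved with these chains in DN1–DN3 cells. The 9 dendritic cell markers summed to 4.54 and 3.57 CPM in the WT-labelled and 12.8 and 11.99 CPM in the KO-labelled libraries, and the 10 monocyte and macrophage markers to 22.4 and 18.5 CPM against 38.6 and 41.9 CPM. Cd209a was at 0 in 3 of the 4 libraries. The fit without these cells, given above, is the measurement that bears on them. H2-Eb1 shares sequence with H2-Eb2 and H2-DMb1 with H2-DMb2, so that reads can be split between the copies and the values of these genes are uncertain to that extent.

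The promoters of H2-Aa and H2-Eb1, chains called higher in DN1–DN3 cells, and of Ctss, called higher there and in thymic γδ T cells and lower in spleen, are shown because class II genes are known to be controlled by a shared module of upstream boxes. The letters are the 250 bases before the annotated start from RefSeq on build GRCm38.p6, given on the strand of the gene at chr17:34287824-34288073 (minus strand) for H2-Aa, chr17:34305617-34305866 (plus strand) for H2-Eb1 and chr3:95526536-95526785 (plus strand) for Ctss. Capitals mark the matches to the motifs searched.
H2-Aa: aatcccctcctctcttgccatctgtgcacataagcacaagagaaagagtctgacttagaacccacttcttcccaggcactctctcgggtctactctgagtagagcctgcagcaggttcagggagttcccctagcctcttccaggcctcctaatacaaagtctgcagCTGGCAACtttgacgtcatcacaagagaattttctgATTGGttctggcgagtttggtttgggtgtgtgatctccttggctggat
H2-Eb1: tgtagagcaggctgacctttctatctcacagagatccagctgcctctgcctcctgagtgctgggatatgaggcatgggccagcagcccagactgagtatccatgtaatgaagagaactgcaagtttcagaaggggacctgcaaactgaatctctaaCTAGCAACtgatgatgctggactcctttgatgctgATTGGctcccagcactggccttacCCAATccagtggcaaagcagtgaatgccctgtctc
Ctss: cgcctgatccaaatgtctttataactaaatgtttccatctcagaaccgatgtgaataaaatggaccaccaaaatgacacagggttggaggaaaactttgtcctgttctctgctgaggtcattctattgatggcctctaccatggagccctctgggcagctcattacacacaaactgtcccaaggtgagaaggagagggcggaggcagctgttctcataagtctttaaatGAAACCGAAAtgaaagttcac

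Promoters were found for 5 of the 8 members, and both strands were searched. The Y box CCAAT, which occurs in 33.8% of 32851 promoters of this length, was found in H2-Aa as ATTGG at 48 to 44 bases before the start, and in H2-Eb1 as ATTGG at 59 to 55 and as CCAAT at 35 to 31 bases. An X1 box written as CTNGNAAC, letters chosen after these sequences had been read and found in 10.9% of promoters, stood at 84 to 77 bases in H2-Aa (CTGGCAAC) and at 94 to 87 bases in H2-Eb1 (CTAGCAAC). H2-DMb1 had the same pair, CTAGTAAC at 97 to 90 and ATTGG at 61 to 57 bases, and of the starts annotated for H2-DMa the second had ATTGG at 198 to 194 bases. Ctss had neither box and held the interferon response element (GAAA, 2 bases of any kind and GAAA again), found in 2.98% of promoters, as GAAACCGAAA at 21 to 12 bases. The gamma-activated site TTCNNNGAA (7.02% of promoters) and the GFI1 site, written as AAATCAC (2.75%), were not among the letters of these windows. Shorter forms of these motifs were not searched. A match of letters is a description and not a site of binding.

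Cd74, the invariant chain, rose in spleen and in DN1–DN3 cells. In spleen it measured 6.23 and 9.05 CPM in the WT-labelled and 32.4 and 14.1 CPM in the KO-labelled libraries, with a ratio of 5.20 in the first pool and 1.56 in the second. In thymic γδ T cells it measured 2.46 and 3.82 CPM against 4.28 and 2.56 CPM, and in DN1–DN3 cells 1.57 and 3.80 CPM against 11.4 and 16.2 CPM. The labels overlapped only in thymic γδ T cells. Summed marker lists of other cells were lower in the KO-labelled splenic libraries. The B cell markers stood at 218 and 224 CPM against 88.3 and 73.5 CPM. The dendritic cell markers stood at 57.1 and 59.4 against 5.05 and 3.89 CPM, and the monocyte and macrophage markers at 44.7 and 39.6 against 6.83 and 5.25 CPM. Igkc, 1 of the B cell markers, was not lower, at 10.4 and 1.11 against 23.0 and 10.2 CPM. Whether γδ T cells themselves carry part of this marker RNA was not tested, so the sums are not counts of other cells. The log2 differences of Cd74 were 1.70 ± 0.51 (adjusted p = 0.0196) in spleen, 0.23 ± 0.55 (adjusted p = 0.754) in thymic γδ T cells and 2.35 ± 0.54 (adjusted p = 0.0144) in DN1–DN3 cells.

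The splenic Cd74 call was lost in 5 of 15 alternatives, with 0.96 (adjusted p = 0.173) without the first KO-labelled library, 0.129 as the adjusted p without the first WT-labelled library and 0.0551 without the second. The call in DN1–DN3 cells was lost in 4, with an adjusted p of 0.103 without the first WT-labelled library, 0.0539 without the first KO-labelled and 0.0703 without the second KO-labelled library. In DN1–DN3 cells the dendritic cell markers were higher in the KO-labelled libraries, at 4.54 and 3.57 CPM against 12.8 and 11.99 CPM. The B cell markers overlapped between the labels, at 126 and 192 against 144 and 622 CPM. Without cells with myeloid or dendritic markers the Cd74 difference there was 1.63 (adjusted p = 0.0411). Over all cells the levels in DN1–DN3 cells were 5.32 and 5.44 CPM against 32.2 and 66.6 CPM, and the difference was 3.22 ± 0.48 (adjusted p = 0.00133). Over all cells in spleen it was 1.16 ± 0.45 (adjusted p = 0.0521), and 1.04 (adjusted p = 0.0269) with the pool as a block.

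Cd74 was spread over different numbers of cells in the 2 compartments where it rose. In spleen 1.36% and 1.96% of WT-labelled cells and 8.90% and 3.29% of KO-labelled cells had a Cd74 UMI, and in DN1–DN3 cells 0.487% and 1.46% against 2.30% and 2.15%. H2-Ab1 was seen in 4.22% and 4.79% of WT-labelled DN1–DN3 cells without Cd74, so that DN cells are not a set free of class II RNA. DN cells with a UMI of the pre-T receptor gene Ptcra, a part of that set, serve as a reference for Cd74 alone. These had medians of 6923 and 6322 UMIs per cell in the WT-labelled and 6829 and 6786 in the KO-labelled libraries. Their Cd74 shares were 0.542% and 1.45% against 1.28% and 1.37%. The shares in KO-labelled spleen and DN1–DN3 cells lay above all 4 of these, at medians of 5455 and 5400.5 UMIs in spleen and 5584.5 and 5775 in DN1–DN3 cells, while the 4 shares in thymic γδ T cells, between 1.27% and 1.69%, did not stand clear of them. The second WT-labelled splenic library, at 1.96%, also lay above all 4, and the second WT-labelled DN1–DN3 library, at 1.46%, was level with the highest of them. The splenic pools held no such thymic cells of their own.

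Cells with at least 10 Cd74 UMIs were rare and unlike between the compartments. They numbered 5 and 7 in the WT-labelled and 15 and 14 in the KO-labelled splenic libraries, 0 and 3 against 0 and 0 among thymic γδ T cells (0 of 6791, 6786 or 7622 cells allows up to 0.0442%), and 1 and 2 against 5 and 14 among DN1–DN3 cells. In the KO-labelled splenic libraries they held 14.2% and 17.0% of the Cd74 UMIs, so that most of it lay in cells with fewer. In the DN1–DN3 libraries they held 63.9% and 49.2% in the WT-labelled and 50.0% and 74.6% in the KO-labelled ones. All 15 and all 14 of the KO-labelled splenic cells also carried Trdc, the δ chain constant gene, and Cd3e, while 3 and 6 of them carried a B cell marker and 0 and 0 at least 2 myeloid or dendritic markers. Of the KO-labelled DN cells 0 of 5 and 1 of 14 carried Trdc, 3 of 5 and 8 of 14 carried at least 2 myeloid or dendritic markers, 1 of 5 and 7 of 14 carried a B cell marker, and 4 of 5 and 13 of 14 carried H2-Aa, H2-Ab1 and H2-Eb1 together. These cells were picked by Cd74, so their other genes are a description.

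**Figure D3:**
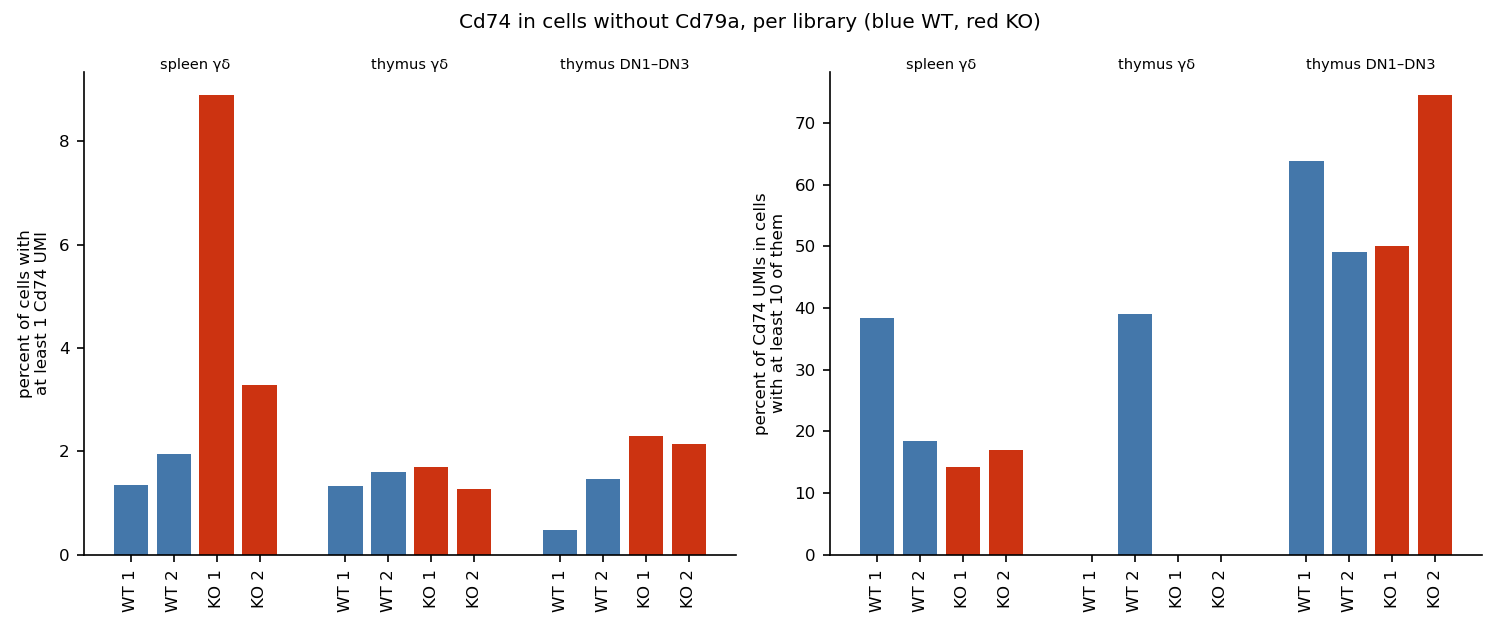
Percent of cells without Cd79a that had a Cd74 UMI and percent of Cd74 UMIs in cells with at least 10 of them, with a bar per library, blue for WT-labelled and red for KO-labelled. The KO-labelled splenic libraries reached 8.90% and 3.29% of cells with 14.2% and 17.0% of the UMIs in high cells, while in DN1–DN3 cells 49.2% to 74.6% of the UMIs lay in high cells with either label.

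Cells with Cd74 more often carried H2-Ab1 than the other cells of the same library. In spleen H2-Ab1 was seen in 17.9% and 22.5% of WT-labelled and 17.4% and 18.0% of KO-labelled Cd74+ cells, against 0.469%, 0.339%, 2.28% and 0.887% of the cells without Cd74. The shares in Cd74+ cells were close together, while those in the remaining cells were highest in the first KO-labelled library. Among thymic γδ T cells H2-Ab1 was seen in 3.33% and 5.47% of WT-labelled and 6.96% and 9.28% of KO-labelled Cd74+ cells. Cells that carried Ciita and Cd74 together were few in number. In spleen 4 of 31 and 6 of 37 WT-labelled Ciita+ cells (12.9% and 16.2%) had a Cd74 UMI, against 1.32% and 1.91% of the cells without Ciita, and 17 of 154 and 10 of 163 KO-labelled ones (11.04% and 6.13%), against 8.86% and 3.25%. All 4 splenic shares were the higher ones in Ciita+ cells. In the KO-labelled thymic γδ T libraries 3 of 244 and 3 of 259 Ciita+ cells had Cd74 (1.23% and 1.16%), against 1.71% and 1.28% of the rest. Cells with more UMIs hold more of every gene, and these shares were not thinned.

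H2-DMa, a chain of the peptide editor, fell in both γδ T compartments. In spleen it measured 30.7 and 28.5 CPM in the WT-labelled and 13.8 and 13.2 CPM in the KO-labelled libraries, and in thymic γδ T cells 31.0 and 30.3 CPM against 16.5 and 12.04 CPM. It measured 24.0 and 25.8 CPM against 21.3 and 17.1 CPM in DN1–DN3 cells. The KO-labelled libraries were the lower ones in all 3 compartments. The log2 differences were -1.04 ± 0.13 (adjusted p = 7.98e-05) in spleen and -0.98 ± 0.13 (adjusted p = 0.00016) in thymic γδ T cells, and both calls held in all 15 alternatives. The summed B cell, dendritic and macrophage markers were lower too in the KO-labelled splenic libraries, as given for Cd74, though Igkc was not. The splenic H2-DMa difference was -1.03 without cells holding any of 6 B cell genes and -1.04 without cells with myeloid or dendritic markers. In DN1–DN3 cells the difference of -0.39 ± 0.13 missed the threshold (adjusted p = 0.0561), and DESeq2 gave -0.39 with an adjusted p of 0.0376.

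The share of cells with an H2-DMa UMI was lower where its level was lower. H2-DMa was seen in 14.3% and 13.6% of WT-labelled and 7.73% and 7.30% of KO-labelled splenic cells, and in 19.8% and 21.7% against 9.17% and 6.39% of thymic γδ T cells. After thinning, the shares were 5.98% and 5.68% against 2.73% and 2.63% in spleen and 5.53% and 6.08% against 3.11% and 2.19% in thymic γδ T cells. Neither the counted nor the thinned shares overlapped between the labels.

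H2-DMb1, the partner chain, fell in thymic γδ T cells. There it measured 2.57 and 2.75 CPM in the WT-labelled and 0.851 and 0.706 CPM in the KO-labelled libraries, without overlap, with a log2 difference of -1.65 ± 0.40 (adjusted p = 0.00658) that held in all 15 alternatives. In spleen it measured 1.03 and 1.28 CPM against 2.16 and 0.822 CPM, with both WT-labelled libraries between the KO-labelled ones, and the difference of 0.43 ± 0.40 was not called (adjusted p = 0.378). In DN1–DN3 cells it measured 2.86 and 3.19 CPM against 1.64 and 2.11 CPM, with a difference of -0.68 ± 0.37 (adjusted p = 0.217). The splenic difference turned with the library left out, from -0.41 (adjusted p = 0.296) without the first KO-labelled library to 1.02 (adjusted p = 0.0154) without the second.

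Ctss, the protease that trims the invariant chain, had the largest difference of the 8 genes in DN1–DN3 cells and moved in opposite directions in spleen and thymus. In spleen it measured 95.5 and 132 CPM in the WT-labelled and 64.8 and 65.5 CPM in the KO-labelled libraries. In thymic γδ T cells it measured 47.4 and 53.9 CPM against 164 and 149 CPM, and in DN1–DN3 cells 5.36 and 5.71 CPM against 95.7 and 58.3 CPM. The labels did not overlap in any compartment. The log2 differences were -0.71 ± 0.19 (adjusted p = 0.0115) in spleen, 1.75 ± 0.20 (adjusted p = 8.34e-05) in thymic γδ T cells and 3.78 ± 0.22 (adjusted p = 9.73e-06) in DN1–DN3 cells. Both thymic calls held in all 15 alternatives. The splenic call was lost without the second WT-labelled library, at -0.51 (adjusted p = 0.0695), and without either KO-labelled library, at an adjusted p of 0.0542 and 0.0635. The splenic difference was -0.73 (adjusted p = 0.0133) without cells holding any of 6 B cell genes and -0.71 (adjusted p = 0.0131) without cells with myeloid or dendritic markers, and the summed markers of these cells were lower in the KO-labelled splenic libraries.

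Ctss was seen in many cells. Among DN1–DN3 cells 3.63% and 3.54% of WT-labelled and 40.0% and 30.1% of KO-labelled cells had a Ctss UMI, and after thinning 1.33% and 1.38% against 18.9% and 12.95%. Among thymic γδ T cells the shares were 27.7% and 31.9% against 56.2% and 52.0%, and in spleen 35.6% and 45.0% against 28.4% and 28.9%. By level the groups ran from KO-labelled thymic γδ T cells over WT-labelled spleen, KO-labelled DN1–DN3 cells, KO-labelled spleen and WT-labelled thymic γδ T cells to WT-labelled DN1–DN3 cells. Of these, KO-labelled DN1–DN3 cells overlapped with both splenic groups, and the other neighbours did not overlap.

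**Figure D4:**
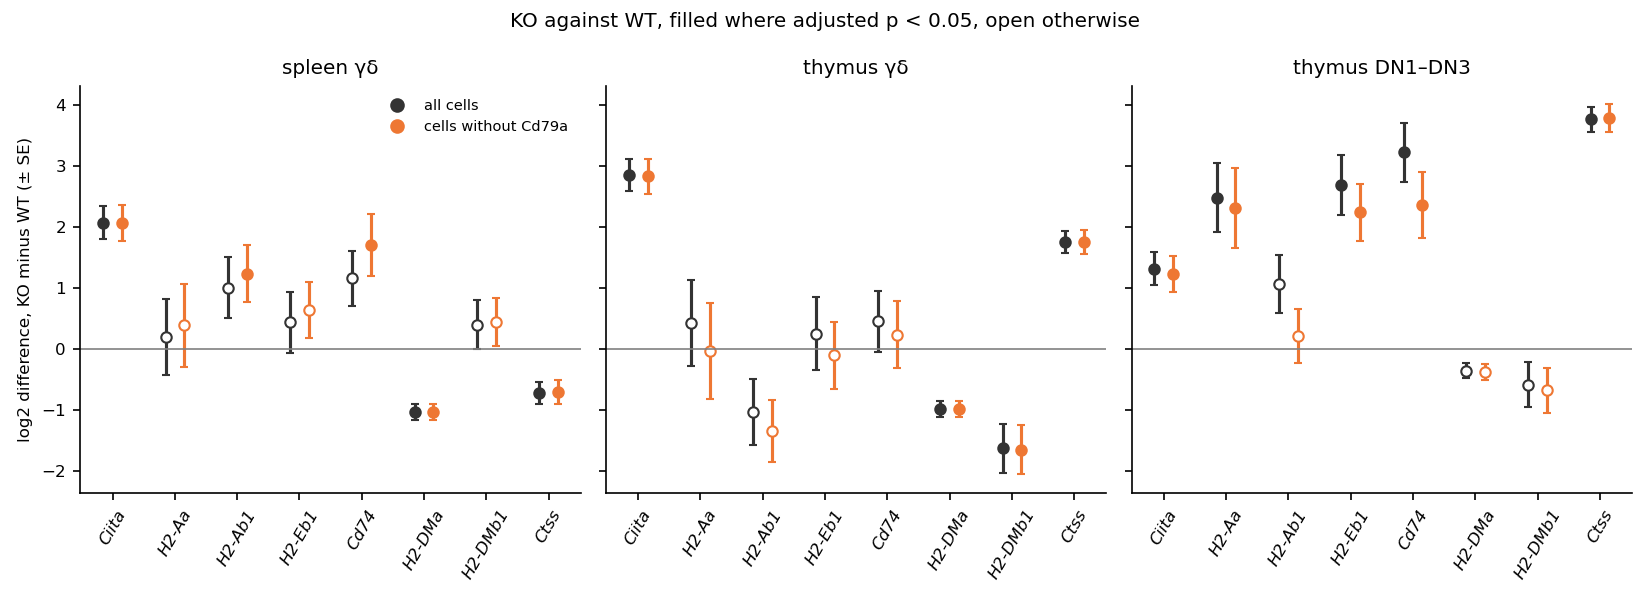
Log2 difference between KO-labelled and WT-labelled libraries with its SE for each of the 8 members in the 3 compartments, in black over all cells and in orange over cells without Cd79a, filled where called. Over cells without Cd79a Ctss stood at -0.71 in spleen, 1.75 in thymic γδ T cells and 3.78 in DN1–DN3 cells, whereas Ciita was positive and H2-DMa negative in all of them.

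Counted together, 5 of the 8 members were called in spleen, with Ciita, H2-Ab1 and Cd74 higher and H2-DMa and Ctss lower, where 54.9% of the 14863 genes tested were called. Among thymic γδ T libraries 4 of 8 were called, with Ciita and Ctss higher and H2-DMa and H2-DMb1 lower, against 50.2% of all genes. Both counts were near the share of all genes called and are no result about the members as a group. Among DN1–DN3 libraries 5 of 8 were called, all higher (Ciita, H2-Aa, H2-Eb1, Cd74 and Ctss), against 22.1% of all genes. The number of all genes called can change with the fit too, so 22.1% is not the background of the counts that follow. The member count was 3 when only the 4 libraries compared were fitted, where 1869 genes were called in place of 3287. It was 2 when cells with myeloid or dendritic markers were left out as well. It was 1 without the first WT-labelled library, 4 without the second, 2 without the first KO-labelled library and 3 without the second. The median log2 difference of the members was 0.54, -0.08 and 1.73 in the same order of compartments, beside 0.0052, -0.0021 and -0.019 for all genes tested. Over all cells 3, 4 and 5 members were called, against 54.7%, 49.7% and 23% of the genes, and without Cd79a the splenic count was 3 when no filter on low counts was used or when only the 4 libraries compared were fitted.

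The genotype difference was then tested between compartments as an interaction. Between spleen and thymic γδ T cells it differed for Ctss (-2.46 ± 0.28, adjusted p = 0.000282), H2-Ab1 (2.58 ± 0.69, adjusted p = 0.0221) and H2-DMb1 (2.09 ± 0.57, adjusted p = 0.0203), which is 3 of 8 members where 29.7% of all genes were called. Between DN1–DN3 and thymic γδ T cells it differed for Ctss (2.03 ± 0.29, adjusted p = 0.00142), Ciita (-1.60 ± 0.41, adjusted p = 0.02), H2-Eb1 (2.34 ± 0.71, adjusted p = 0.0418) and H2-DMa (0.60 ± 0.18, adjusted p = 0.0409), which is 4 of 8 against 21.8%. Both Ctss differences held with any library left out. Each of the others was lost when single libraries were left out, with a highest adjusted p of 0.0884 for H2-Ab1 (without the second WT-labelled thymic γδ library), 0.0725 for H2-DMb1 (without the first WT-labelled splenic library), 0.0816 for Ciita (without the first WT-labelled thymic γδ library), 0.259 for H2-Eb1 (without the second WT-labelled thymic γδ library, at 1.34) and 0.141 for H2-DMa (without the first WT-labelled DN1–DN3 library). Without cells with myeloid or dendritic markers the H2-Eb1 difference was 0.42 (adjusted p = 0.702) and that of H2-DMa 0.57 (adjusted p = 0.0554), so that 2 of the 4 calls between DN1–DN3 and thymic γδ T cells, Ctss and Ciita, were kept. For Cd74 the difference of 2.12 ± 0.76 between DN1–DN3 and thymic γδ T cells was not called (adjusted p = 0.0797; 2.97 and 0.0481 without the second WT-labelled DN1–DN3 library), nor was that of 1.47 ± 0.75 between spleen and thymic γδ T cells (adjusted p = 0.172).

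Among WT-labelled libraries Ctss was higher in splenic than in thymic γδ T cells by 1.25 ± 0.20 on the log2 scale (adjusted p = 0.000701) and higher in thymic γδ T cells than in DN1–DN3 cells by 3.21 ± 0.22 (adjusted p = 5.01e-06). Of the 8 members 3 were called in the first comparison, where 48.9% of all genes were, and 2 in the second, against 47.4%. H2-DMb1 was lower in WT-labelled spleen than in WT-labelled thymic γδ T cells by a log2 difference of -1.12 ± 0.38 (adjusted p = 0.0348), and H2-Eb1 was called just under the threshold with 1.31 ± 0.49 (adjusted p = 0.05). H2-Ab1 was lower in WT-labelled thymic γδ T cells than in WT-labelled DN1–DN3 cells (-1.25 ± 0.45, adjusted p = 0.0471). The H2-DMb1 and H2-Ab1 calls were lost whichever of the 4 libraries compared was left out, with adjusted p values up to 0.18 and 0.225. The H2-Eb1 call was lost without either splenic library (adjusted p = 0.0919 and 0.142) and without the first thymic one (adjusted p = 0.211). In a fit of only the 4 WT-labelled thymic libraries with the replicate number as a block, which runs across pools, H2-Aa (-1.07, adjusted p = 0.00111) and H2-DMa (0.33, adjusted p = 0.000366) were also called between thymic γδ T cells and DN1–DN3 cells.

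Levels were also taken within γδ T cells whose leading γ variable gene was the same. Trgv6, the gene of the Vγ6 subset, led in 187 and 229 WT-labelled and 3415 and 4598 KO-labelled splenic cells, and in 41 and 57 against 2025 and 2690 thymic γδ T cells. The γ variable genes are similar in sequence, which limits the certainty of these calls. The authors also describe 3′ sequencing as unreliable for T cell receptor variable genes. They placed almost all KO splenic γδ T cells in clusters with Vγ6-type genes. Whether the groups led by another Trgv gene hold such cells was not tested. In spleen Ctss measured 112 and 135 CPM against 61.0 and 70.2 CPM in Trgv1 cells, 93.2 and 132 against 72.2 and 70.1 CPM in Trgv2 cells, and 90.2 and 125 against 74.8 and 62.5 CPM in Trgv4 cells. In all 3 groups the KO-labelled libraries were the lower ones. In Trgv6 cells of the spleen it measured 29.9 and 82.5 CPM against 64.2 and 64.5 CPM, the KO-labelled libraries lay between the WT-labelled ones, and the log2 difference was 0.11 ± 0.29 (adjusted p = 0.88). Without the second WT-labelled library it was 1.07 (adjusted p = 0.0146).

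In the thymus Ctss was higher in the KO-labelled libraries within every such group of γδ T cells. It measured 47.3 and 56.9 CPM against 171 and 156 CPM in Trgv1 cells, 43.1 and 47.6 against 148 and 141 CPM in Trgv2 cells, 38.6 and 56.2 against 146 and 141 CPM in Trgv4 cells, and 51.3 and 56.0 against 177 and 152 CPM in Trgv6 cells. For Trgv6 cells the log2 difference was 1.72 ± 0.41 (adjusted p = 0.0244), a call that was lost without the first or the second WT-labelled library (adjusted p = 0.209 and 0.224) and without the first KO-labelled library (adjusted p = 0.0531). The 98 WT-labelled Trgv6 cells held 36 Ctss UMIs, so this comparison rests on few counts.

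Ciita measured 9.92 and 8.71 CPM in the Trgv6 cells of the KO-labelled thymic libraries, against 3.92 and 3.94 CPM in their Trgv2 cells and 4.60 and 3.52 CPM in their Trgv1 cells. The WT-labelled Trgv6 cells held 0 Ciita UMIs of 667268. Against a floor of 3 UMIs over the group, the pooled KO-labelled level of 9.22 CPM was at least 2.05-fold higher. The WT-labelled Trgv2 cells measured 0.805 and 0.818 CPM, below the KO-labelled Trgv2 cells. H2-DMa was lower in KO-labelled Trgv6 cells of the thymus by a log2 difference of -1.59 ± 0.38 (adjusted p = 0.00989), at 27.4 and 42.7 CPM against 13.4 and 8.77 CPM, and without the second WT-labelled library the difference was -1.22 (adjusted p = 0.275). The thymic call of Ciita was lost whichever of the 4 libraries was left out. In splenic Trgv6 cells Ciita ranged from 2.13 to 2.57 CPM in the WT-labelled and from 2.36 to 3.72 CPM in the KO-labelled libraries. The labels overlapped, with a log2 difference of 0.32 ± 0.62 and no call (adjusted p = 0.833). The WT-labelled splenic Trgv6 cells held 6 Ciita UMIs, so this comparison too rests on few counts.

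In Trgv6 cells 3 of 8 members were called in the thymus (Ciita, H2-DMa and Ctss), where 15.8% of the 11592 genes tested were called, and 1 of 8 in the spleen, against 11.5%. The splenic call was H2-Eb1 with -2.00 ± 0.60 (adjusted p = 0.0452), which was lost without the second WT-labelled (-0.76, adjusted p = 0.77), the first KO-labelled (adjusted p = 0.1) or the second KO-labelled library (adjusted p = 0.305). H2-Ab1 in the same cells had a difference of -1.60 (adjusted p = 0.0685), and -1.77 (adjusted p = 0.00529) with the pool as a block. Cd74 in splenic Trgv6 cells measured 18.8 and 91.1 CPM in the WT-labelled and 35.4 and 13.9 CPM in the KO-labelled libraries, with overlap and no call (adjusted p = 0.49). In Trgv2 cells of the spleen Cd74 measured 6.39 and 8.13 CPM against 36.4 and 15.4 CPM, without overlap.

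DN1–DN3 cells were split by Ptcra, which marks the later DN stages, in a comparison added after the data had been seen. Ctss measured 2.84 and 2.19 CPM in WT-labelled and 56.3 and 40.9 CPM in KO-labelled cells with Ptcra, and 7.79 and 9.65 against 119 and 79.5 CPM in cells without it. The KO-labelled libraries were higher in both sets, with log2 differences of 4.26 and 3.53 (adjusted p = 2.22e-06 and 0.000407). For Cd74 the levels were 0.561 and 1.77 against 2.14 and 2.23 CPM with Ptcra and 2.56 and 6.07 against 16.9 and 33.4 CPM without. The difference was called in cells without Ptcra (2.58, adjusted p = 0.00859) and not in cells with it (0.89, adjusted p = 0.294). Ciita measured 0.693 and 0.518 against 0.751 and 0.295 CPM with Ptcra and 0.767 and 0.784 against 2.83 and 2.33 CPM without, and its difference was -0.32 (adjusted p = 0.754) with and 1.76 (adjusted p = 0.00516) without Ptcra. Whether these differences differ between the sets was not tested.

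**Figure D5:**
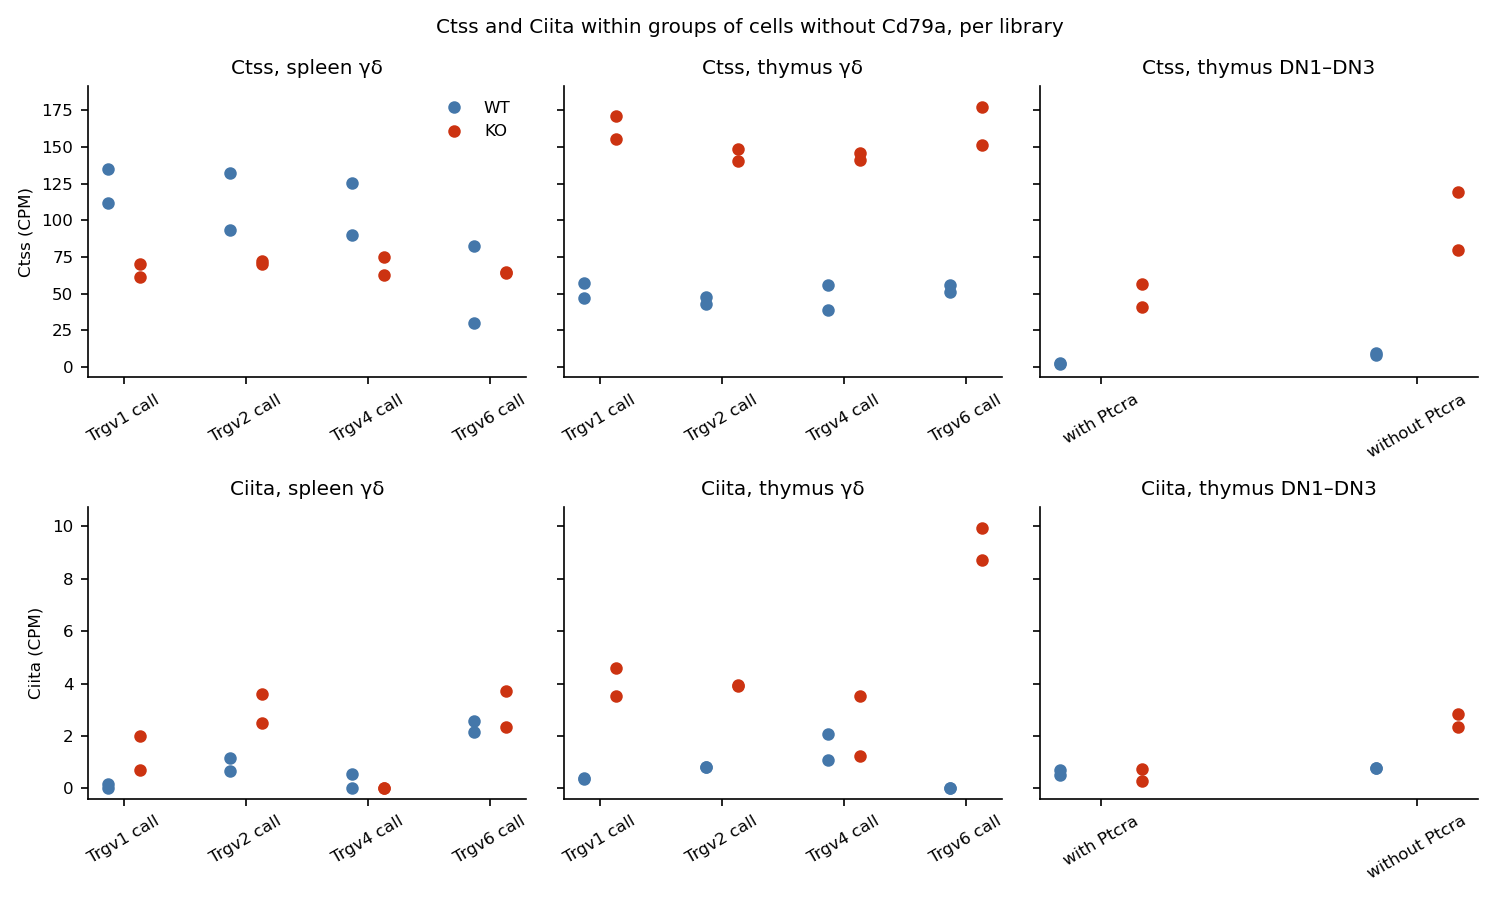
Level of Ctss and Ciita in CPM per library within cells grouped by leading Trgv gene (spleen and thymic γδ T cells) or by Ptcra (DN1–DN3 cells), all without Cd79a. Ctss was higher in the KO-labelled libraries in all 4 thymic γδ groups and in both DN sets, and Ciita reached 9.92 and 8.71 CPM in KO-labelled thymic Trgv6 cells.

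Other genes of the pathway were compared as lists, over cells without Cd79a and with values in the order spleen, thymic γδ T cells and DN1–DN3 cells. Of all genes tested 28.7%, 26.3% and 14.7% were called higher and 26.2%, 23.9% and 7.42% lower in the KO-labelled libraries, with the medians given above. Among the further class II genes, of which 6 of 7 were tested, 1 rose and 3 fell in spleen. H2-Ob and H2-Oa, the chains of the inhibitor of the peptide editor, fell there, H2-Ob from 16.9 and 17.1 CPM to 0.385 and 0.591 CPM (log2 difference -4.99 ± 0.23, adjusted p = 1.37e-07) and H2-Oa with a log2 difference of -2.75 ± 0.18. In the same libraries the B cell markers summed to 218 and 224 CPM against 88.3 and 73.5 CPM, the dendritic cell markers to 57.1 and 59.4 against 5.05 and 3.89 CPM and the monocyte and macrophage markers to 44.7 and 39.6 against 6.83 and 5.25 CPM. Both calls held in all 15 alternatives, among them the fits without cells holding any of 6 B cell genes and without cells with myeloid or dendritic markers, and what RNA of such cells adds beyond that was not tested. Of the same genes 1 rose and 2 fell in thymic γδ T cells, with H2-Ob lower (-2.79 ± 0.21). Among them 4 rose and 1 fell in DN1–DN3 cells, with H2-Oa higher, at 3.25 and 3.35 CPM against 13.1 and 13.8 CPM in the KO-labelled libraries (2.03 ± 0.17, adjusted p = 4.34e-05). Its partner H2-Ob was the 1 that fell (-0.81 ± 0.21, adjusted p = 0.0216), a call lost in 3 of 15 alternatives. Cd83, which stabilises class II on the surface, rose in all 3 compartments (2.64 ± 0.38, 3.54 ± 0.41 and 3.96 ± 0.49). The medians of this list were -1.38, -0.85 and 1.63.

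The factors that bind class II promoters differed by small amounts. Of the 7, 1 rose and 2 fell in spleen, 1 rose and 3 fell in thymic γδ T cells, and 1 fell in DN1–DN3 cells, with medians of -0.08, 0.03 and -0.12. The largest difference among those called was that of Nfyb in thymic γδ T cells (-0.64 ± 0.11, adjusted p = 0.000814). Of 8 genes of the interferon γ response that lies upstream of Ciita, 2 rose and 6 fell in spleen, 4 rose and 1 fell in thymic γδ T cells, and 5 rose in DN1–DN3 cells, with medians of -0.80, 0.37 and 0.43. In spleen Ifngr1, a receptor chain, fell by 1.68 on the log2 scale. Ifngr2 rose in all 3 compartments, by 1.19, 0.84 and 0.96. Socs1 rose by 1.16 in spleen and 1.71 in thymic γδ T cells, and Irf1 by 0.65 in thymic γδ T cells and 0.43 in DN1–DN3 cells. The Irf1 call in DN1–DN3 cells was lost in 4 of 15 alternatives, with adjusted p values of 0.107 without the first WT-labelled library, 0.0539 without the second, 0.115 without the first KO-labelled library and 0.0749 with only the libraries compared.

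Among 10 antigen processing proteases and helpers, 6 rose and 1 fell in spleen, 8 rose and 1 fell in thymic γδ T cells, and 6 rose in DN1–DN3 cells, with medians of 0.52, 0.80 and 0.47. Ctsl, the cathepsin that trims the invariant chain in thymic epithelium, fell from 9.83 and 9.94 CPM to 0.664 and 0.692 CPM in spleen (-3.77 ± 0.22, adjusted p = 5.97e-07) and by 1.99 in thymic γδ T cells. Its splenic fall went with the same lower marker sums and held in all 15 alternatives. Ifi30, a lysosomal thiol reductase, rose in all 3 compartments, by 2.22, 2.16 and 1.84. Cst3, the cathepsin inhibitor cystatin C, rose by 1.85 in spleen and 1.09 in thymic γδ T cells.

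Class I genes rose more often than they fell, with 4 rising and 1 falling of 9 in spleen, 7 rising in thymic γδ T cells, and 5 rising and 1 falling in DN1–DN3 cells (medians 0.32, 1.06 and 0.57). H2-K1 rose by 1.85 in thymic γδ T cells and by 1.03 in DN1–DN3 cells, and B2m, the shared light chain, by 1.06 and 0.57. The B2m call in DN1–DN3 cells was lost without the first WT-labelled library (adjusted p = 0.0806) and with only the libraries compared (adjusted p = 0.0928). Of the 3 costimulatory genes 1, 2 and 2 rose, with Cd80 going from 2.28 and 2.26 CPM to 65.4 and 51.9 CPM in spleen (4.79 ± 0.22, adjusted p = 1.72e-07). Cd40 rose by 4.23 (adjusted p = 0.00236) and Cd86 by 3.58 (adjusted p = 0.0481) in DN1–DN3 cells, where both measured at most 1.84 CPM in any library. The dendritic and macrophage markers given above were higher in the same KO-labelled libraries. Both calls held in the fit without cells with myeloid or dendritic markers, and what RNA of such cells adds beyond that was not tested. The Cd40 call held in all 15 alternatives. The Cd86 call was lost whichever of the 4 libraries was left out (adjusted p values of 0.0656 to 0.305), without the filter on low counts (0.143) and with the pool as a block (0.0669).

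The genes most alike to Ctss across the 12 libraries were Chd7 (Pearson r = 0.993), Smarca2 (0.980), Cd7 (0.965), Ifi213 (0.960) and Zbp1 (0.956), and among those most alike to Cd74 were Ap1m1 (0.856), Alg14 (0.810), Mpnd (0.802) and Kcnab2 (0.792). The likeness was that of log2(CPM + 1) among 6730 genes that averaged at least 20 CPM. The points share compartments, pools and genotype labels, so these values describe the 12 libraries only.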

How the data were processed

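The authors ran single-cell 3′ RNA sequencing on 6 pools of hashtagged cells, aligned and counted the reads with Cell Ranger 8.0.1 on GRCm39 (per the submitters' processing notes), assigned cells to genotypes from the hashtags, and deposited 1 matrix of raw UMI counts per pool and genotype. From these counts, only barcodes that reached 500 UMIs and 200 genes with no more than 20% of mitochondrial UMIs were used, 9538 ribosomal, mitochondrial and Gm genes were left out, and UMIs were summed per library, with 42091895 to 71663962 UMIs per library, a depth that TMM scaling takes into account, and precision is set by 2 libraries per group. Doublets were not called here; leaving out the deepest 5% of cells was an alternative.

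Sums of all 12 libraries were fitted in 6 groups (8 libraries in 4 groups for Trgv6 cells) with edgeR 4.0.16 in R 4.3.3 (TMM, filterByExpr, robust quasi-likelihood F test, two-sided, Benjamini-Hochberg over all genes tested, called at an adjusted p under 0.05). Pairs of WT-labelled and KO-labelled libraries shared a droplet run, and their deviations from the group means correlated with r = 0.293 in spleen, 0.0642 in thymic γδ T cells and 0.172 in DN1–DN3 cells across 14921 genes, with 2 pairs each. The main fit has no block. Alternatives were DESeq2 1.42.0, RLE factors, no filter, fewer libraries, the block, other cell filters and each library left out. Shares were compared with exact permutation tests, and the only limits of counting given are those for a count of 0. On simulated data with 200 of 14863 genes changed 4-fold in the splenic comparison without Cd79a, 94.5% were recovered with 7 false calls. The simulation gave every gene the same fixed dispersion, and all libraries the same mean profile apart from the changed genes. A far smaller part of the genes changed in it than was called in the data, so these figures do not describe single members. Other tools were Python 3.11.15, numpy 2.4.6, scipy 1.17.1, pandas 2.3.3 and matplotlib 3.10.9.

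The members, the lists and the tests were chosen with earlier results of these data known. All 8 members are named, and from each list at most 4 genes per comparison, those with the smallest adjusted p. The most alike genes are the 5 with the highest Pearson r. Genes that these rules would also name are in part not reported here.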

Additional observations from a re-analysis of the deposited data

Results flagged for a closer look

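Differences between the compartments in the effect of genotype were the reason for a closer look, each tested as an interaction in edgeR over cells without Cd79a, on the log2 scale. For Ctss the effect differed by -2.46 between spleen and thymic γδ T cells (adjusted p = 0.000282) and by 2.03 between DN1–DN3 and thymic γδ T cells (adjusted p = 0.00142). H2-Ab1 differed by 2.58 (adjusted p = 0.0221) and H2-DMb1 by 2.09 (adjusted p = 0.0203) between spleen and thymic γδ T cells, where spleen, thymus and sex cannot be told apart. Between DN1–DN3 and thymic γδ T cells, Ciita differed by -1.60 (adjusted p = 0.02), H2-Eb1 by 2.34 (adjusted p = 0.0418) and H2-DMa by 0.60 (adjusted p = 0.0409). Without cells with myeloid or dendritic markers the H2-Eb1 difference was 0.42 (adjusted p = 0.702). Groups of 2 libraries are too small to look for single libraries that stand apart.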

How the results depend on the processing

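With the pool as a replicate block, 5 members instead of 3 were called over all splenic cells, and 2 instead of 1 in splenic Trgv6 cells. With the replicate number as a block across the WT-labelled thymic pools, 4 instead of 2 were called between thymic γδ T cells and DN1–DN3 cells. The calls these pairings added are named in the report or are those of H2-Ab1 over all cells (adjusted p = 0.0357 in spleen, 0.0345 in thymic γδ T cells and 0.0395 in DN1–DN3 cells) and between compartments (1.47, adjusted p = 0.0417). Without the filter on low counts, 3 members were called in spleen without Cd79a, 3 in splenic Trgv6 cells and 1 between WT-labelled thymic γδ T cells and DN1–DN3 cells. With only the libraries compared in the fit, 3 were called in spleen, 3 in DN1–DN3 cells and 2 in the difference between DN1–DN3 and thymic γδ T cells, and the genes called in DN1–DN3 cells fell from 3427 to 2077 over all cells and from 3287 to 1869 without Cd79a. In splenic Trgv6 cells that fit and DESeq2 called 0, with 4 and 3 members at an unadjusted p under 0.05. Without cells with myeloid or dendritic markers, 2 members were called in DN1–DN3 cells and 2 in the difference between DN1–DN3 and thymic γδ T cells, and without cells holding any of 6 B cell genes 1 was called between WT-labelled thymic γδ T cells and DN1–DN3 cells. Among DN cells with Ptcra, 2 members and 1759 genes were called and Ciita turned to -0.32. At 20 Cd74 UMIs, 1 of 3 compartments kept the libraries of the genotypes apart, against 2 at 10. The cause of these changes was not tested. Member counts given without the count of all genes called in the same fit are no result about the members as a group.

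Leaving out 1 library at a time, the members called ranged from 3 to 6 in spleen, 3 to 4 in thymic γδ T cells and 3 to 5 in DN1–DN3 cells over all cells (6647 to 6971, 5450 to 6403 and 1678 to 5040 genes), and from 2 to 5, 4 to 4 and 1 to 4 without Cd79a (6639 to 6981, 5469 to 6466 and 1589 to 5047 genes). In Trgv6 cells they ranged from 0 to 2 in spleen and 0 to 2 in thymus (434 to 1224 and 965 to 1485 genes), where edgeR's counts of 0 had 0 and 2 members at an unadjusted p under 0.05, in the differences from 1 to 3 against thymic γδ T cells both for spleen (2655 to 3688 genes) and for DN1–DN3 cells (1881 to 4008 genes), and among WT-labelled libraries from 1 to 3 (5135 to 5963 genes) and 1 to 2 (4812 to 5470 genes). Of the 48 shares of cells with a member's UMI, 43 to 48 did not overlap between genotypes with 1 library left out. Nor did 15 to 22 of 27 values for cells with Cd79a and 2 to 3 of 3 for cells high in Cd74. A library left out can remove overlap but not add it, so these ranges cannot fall below the counts with all libraries. With all libraries, the UMI shares in cells with Cd79a did not overlap for 4 members in spleen, 3 in DN1–DN3 cells and 2 in thymic γδ T cells. No such count was made over all genes, so these counts are no result about the members as a group. Of the members' differences under all alternatives, 1110 kept direction and side of the threshold, 96 lost and 42 gained a call, 37 changed sign with no call in either fit, and 1 reversed. At 2 libraries per group, levels near 1 CPM rest on few UMIs, and a missing call does not show equal levels.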
